A study of Mus musculus with 8 samples.

Results

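The genes described here are 9 germ cell genes, the RNA-binding and identity genes Dazl, Ddx4, Dnd1, Tex14, Tex15, Tex101, Tex19.1, Brdt and Slc25a31. They were chosen by name from the 55421 genes of the count table, and all 9 passed the filter on low counts that left 20588 genes to test. Poly(A) RNA was sequenced from 8 libraries of mouse spermatogonial stem cell (SSC) culture, a primary culture of undifferentiated spermatogonia from neonatal testes. The cells had a C57BL/6XDBA/2 background and grew on irradiated mouse embryonic fibroblasts as feeder cells. They were labelled Stra8KO or Spo11KO, for cultures from mice described as deficient in Stra8 or in Spo11, and the counts of these 2 genes are given with the library totals. The medium was Veh, the vehicle control, or NRRA, which combines nutrient restriction by a balanced salt solution with retinoic acid (RA). The sample entries list N2 supplement with bFGF and GDNF at 10 ng/ml each for all 8 libraries. The study's recipe has more GDNF in the complete medium, and its restriction medium is mostly salt solution with a small part of complete medium. By that recipe these supplements were diluted in NRRA, and their part in the NRRA contrasts was not tested. Each combination of genotype and medium had 2 libraries. The study calls its sequencing replicates independent biological ones and says that replicates used different mice, tissues or cells. It does not say which of these set the libraries of a genotype apart, so an effect of genotype and a difference between cultures cannot be told apart, and p-values measure the spread between these libraries.

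Germ cells control much of their gene expression after transcription, through proteins that bind the 3′ ends of messages and through perinuclear germ granules in which piRNAs and RNA helicases meet. DAZL binds RNA and promotes translation, DDX4 (VASA) is the helicase that marks germ granules, and DND1 is an RNA-binding partner of NANOS2 in the male germ line. TEX14 keeps the intercellular bridges between sister germ cells open. TEX15 and TEX19.1 take part in the silencing of transposons in male germ cells, TEX101 is a protein of the germ cell surface, BRDT is the testis member of the bromodomain BET family that reads acetylated histones, and SLC25A31 is the testis ADP/ATP carrier of mitochondria. Genes of this kind are kept silent outside the germ line by DNA methylation of their promoters and by a repressor complex that holds MGA, MAX and E2F6.

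The promoters were examined because the levels of most members, though not of Brdt, moved together over the libraries, as described further on. Whether the promoters had a part in this was not tested. RefSeq windows on GRCm38.p6 that reach from 250 bases before to 50 bases after the start were matched for 7 members, without Tex15 and Dnd1. These windows held 16 to 38 CpG sites, with a median of 22, against a median of 7 over 32851 windows of all genes. The E-box CACGTG, the sequence bound by MAX and its partners, was found in 3 of the 7 windows (Slc25a31, Brdt and Ddx4), against 7.15% of all windows. The E2F-type sequence GGCGGGAA, searched on both strands, was found in 3 windows (Slc25a31, Tex14 and Ddx4), against 2.19% of all windows. The sequence CNCCTCAG, which is given for STRA8, was found on either strand in 1 window, that of Dazl, 15 bases after the start, against 7.94% of all windows. CCAAT, also on either strand, was found in 4 of the 7 windows, against 37.4%. None of the 4 motifs was found in the Tex19.1 window. Such matches are letters in a window and were not tested as binding sites. The E-box and the E2F-type sequence each hold a CpG, and the shares over all windows were not matched for CpG content. The Tex101 window (chr7:24672001-24672300) follows a RefSeq start that lies inside the span given for the gene further on. The 150 bases before the start are shown for the 4 members that hold an E-box or E2F-type match there, with the matches in capitals and each sequence written 5′ to 3′ along the gene:
Ddx4, chr13:112652311-112652460, minus strand: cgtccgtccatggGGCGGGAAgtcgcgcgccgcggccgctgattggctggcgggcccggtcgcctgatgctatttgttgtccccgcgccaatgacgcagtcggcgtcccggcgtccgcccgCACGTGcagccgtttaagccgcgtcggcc
Brdt, chr5:107331044-107331193, plus strand: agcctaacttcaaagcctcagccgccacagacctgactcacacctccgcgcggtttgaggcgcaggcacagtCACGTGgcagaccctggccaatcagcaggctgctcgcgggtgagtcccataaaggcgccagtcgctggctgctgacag
Slc25a31, chr3:40708721-40708870, plus strand: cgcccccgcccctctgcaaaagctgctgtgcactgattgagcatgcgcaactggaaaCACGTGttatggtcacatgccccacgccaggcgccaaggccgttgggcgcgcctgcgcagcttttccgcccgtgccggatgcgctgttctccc
Tex14, chr11:87404915-87405064, plus strand: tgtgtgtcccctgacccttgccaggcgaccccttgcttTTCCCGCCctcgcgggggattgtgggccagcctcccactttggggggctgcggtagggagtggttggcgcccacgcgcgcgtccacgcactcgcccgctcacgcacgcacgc
In Ddx4 the E-box began 29 bases before the start and the E2F-type match 137 bases before it. The E-box lay 78 bases before the start in Brdt and 93 bases before it in Slc25a31, and the E2F-type match of Tex14 lay 112 bases before the start. The E2F-type match of Slc25a31 lies after the start and is not printed.

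Library totals ranged from 20960794 to 27038868 counts. Stra8 was at 2 and 0 counts in Stra8KO Veh and at 169 and 170 in Stra8KO NRRA, against 12604 and 16191 in the NRRA libraries of the other genotype. Spo11 was no lower where the label is Spo11KO, with 72 and 75 counts in Veh and 148 and 127 in NRRA against 32 and 31, and 68 and 66, in Stra8KO. The table does not say in which exons the reads fell. These libraries are therefore called labelled Spo11KO. Sertoli, Leydig and macrophage markers summed to at most 52.7, 8.63 and 32.8 CPM in any library (CPM, counts per 1e+06 counts of the library after TMM scaling), and 2 of 8, 3 of 6 and 2 of 8 of these markers failed the filter. All 11 spermatogonia markers, such as Dmrt1, Zbtb16, Ret and Sall4, were tested, and their values are given after those of the members. The 16 fibroblast markers, such as Fn1, Col1a1, Col1a2 and Col3a1, summed to 14280 to 43644 CPM.

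Read per kilobase of exon, which allows levels of different genes to be compared, Dazl was the most abundant of the 9 in every group. It was at 75.0 CPM per kb in Stra8KO Veh, 79.7 in Stra8KO NRRA, 167 in labelled Spo11KO Veh and 164 in labelled Spo11KO NRRA. Ddx4 came second in each group, at 32.7, 35.7, 68.1 and 76.2 CPM per kb. Brdt was last in each group, at 2.01, 3.88, 2.78 and 3.54 CPM per kb. Between these, the order in Stra8KO Veh was Tex101, Tex19.1, Slc25a31, Tex14, Dnd1 and Tex15, from 30.0 to 8.75 CPM per kb, and no neighbours overlapped. In labelled Spo11KO NRRA it was Slc25a31, Tex101, Tex15, Tex14, Tex19.1 and Dnd1, from 56.05 to 32.8 CPM per kb, where the libraries of Tex15 and Tex14 overlapped. Tex15 thus stood below Tex14, Tex19.1 and Dnd1 in Stra8KO Veh and above Tex19.1 and Dnd1 in labelled Spo11KO NRRA. Neighbours also overlapped for Ddx4 and Tex19.1 and for Tex15 and Dnd1 in Stra8KO NRRA, and for Tex101 and Slc25a31 and for Dnd1 and Tex15 in labelled Spo11KO Veh. Of the counts of all 9 genes together, Dazl held 32.6% to 39.0% in a library, Tex15 11.1% to 23.3%, and Brdt 0.794% to 2.25%.

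The levels are given per library in the order of replicate 1 and replicate 2. Dazl (ENSMUSG00000010592, chr17:50279395-50293636, minus strand, GRCm38, protein coding, as are all 9) was, in Stra8KO, at 285 and 288 CPM in Veh and 316 and 293 CPM in NRRA, and, in labelled Spo11KO, at 618 and 658 CPM in Veh and 603 and 649 CPM in NRRA. Every Stra8KO library lay below every labelled Spo11KO library, and the media overlapped in the labelled Spo11KO cultures. Ddx4 (ENSMUSG00000021758, chr13:112598333-112652475, minus strand) was, in Stra8KO, at 96.7 and 100 CPM in Veh and 110 and 105 CPM in NRRA, and, in labelled Spo11KO, at 198 and 212 CPM in Veh and 225 and 234 CPM in NRRA. Its NRRA libraries lay above the Veh libraries in both genotypes, by less than the genotypes differed. Dnd1 (ENSMUSG00000044595, chr18:36763671-36766214, minus strand) was, in Stra8KO, at 35.2 and 36.5 CPM in Veh and 35.5 and 35.0 CPM in NRRA, and, in labelled Spo11KO, at 74.3 and 66.3 CPM in Veh and 81.9 and 76.4 CPM in NRRA. Of its exon bases, 140 (5.80%) overlap Wdr55 on the opposite strand, and the strand setting of the counting is not given in the sources used here, so some of its reads may be those of Wdr55.

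Tex14 (ENSMUSG00000010342, chr11:87405065-87555823, plus strand) was, in Stra8KO, at 97.7 and 91.0 CPM in Veh and 97.8 and 101 CPM in NRRA, and, in labelled Spo11KO, at 186 and 191 CPM in Veh and 217 and 234 CPM in NRRA. The media were nearly level in Stra8KO and stood apart in labelled Spo11KO. Tex15 (ENSMUSG00000009628, chr8:33516738-33585582, plus strand) was, in Stra8KO, at 84.2 and 84.1 CPM in Veh and 162 and 141 CPM in NRRA, and, in labelled Spo11KO, at 260 and 278 CPM in Veh and 427 and 450 CPM in NRRA. Its 4 groups stood apart, and the Stra8KO NRRA libraries did not reach the labelled Spo11KO Veh libraries. Tex101 (ENSMUSG00000062773, chr7:24668007-24676675, minus strand) was, in Stra8KO, at 48.9 and 50.6 CPM in Veh and 55.8 and 54.1 CPM in NRRA, and, in labelled Spo11KO, at 87.3 and 80.1 CPM in Veh and 81.3 and 79.2 CPM in NRRA. The media overlapped in labelled Spo11KO.

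Tex19.1 (ENSMUSG00000039329, chr11:121146143-121148319, plus strand) was, in Stra8KO, at 49.3 and 49.95 CPM in Veh and 67.0 and 64.8 CPM in NRRA, and, in labelled Spo11KO, at 83.1 and 80.8 CPM in Veh and 77.3 and 72.3 CPM in NRRA. NRRA libraries were high in Stra8KO and low in labelled Spo11KO. Brdt (ENSMUSG00000029279, chr5:107331159-107387058, plus strand) was, in Stra8KO, at 9.97 and 10.6 CPM in Veh and 19.98 and 19.7 CPM in NRRA, and, in labelled Spo11KO, at 15.1 and 13.4 CPM in Veh and 16.1 and 20.2 CPM in NRRA. The NRRA libraries of the 2 genotypes overlapped, and the 2 labelled Spo11KO NRRA libraries were 416 and 592 counts. Slc25a31 (ENSMUSG00000069041, chr3:40708855-40726096, plus strand) was, in Stra8KO, at 50.4 and 48.3 CPM in Veh and 62.7 and 61.5 CPM in NRRA, and, in labelled Spo11KO, at 105 and 108 CPM in Veh and 118 and 121 CPM in NRRA. Its 4 groups stood apart.

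**Figure D1:**
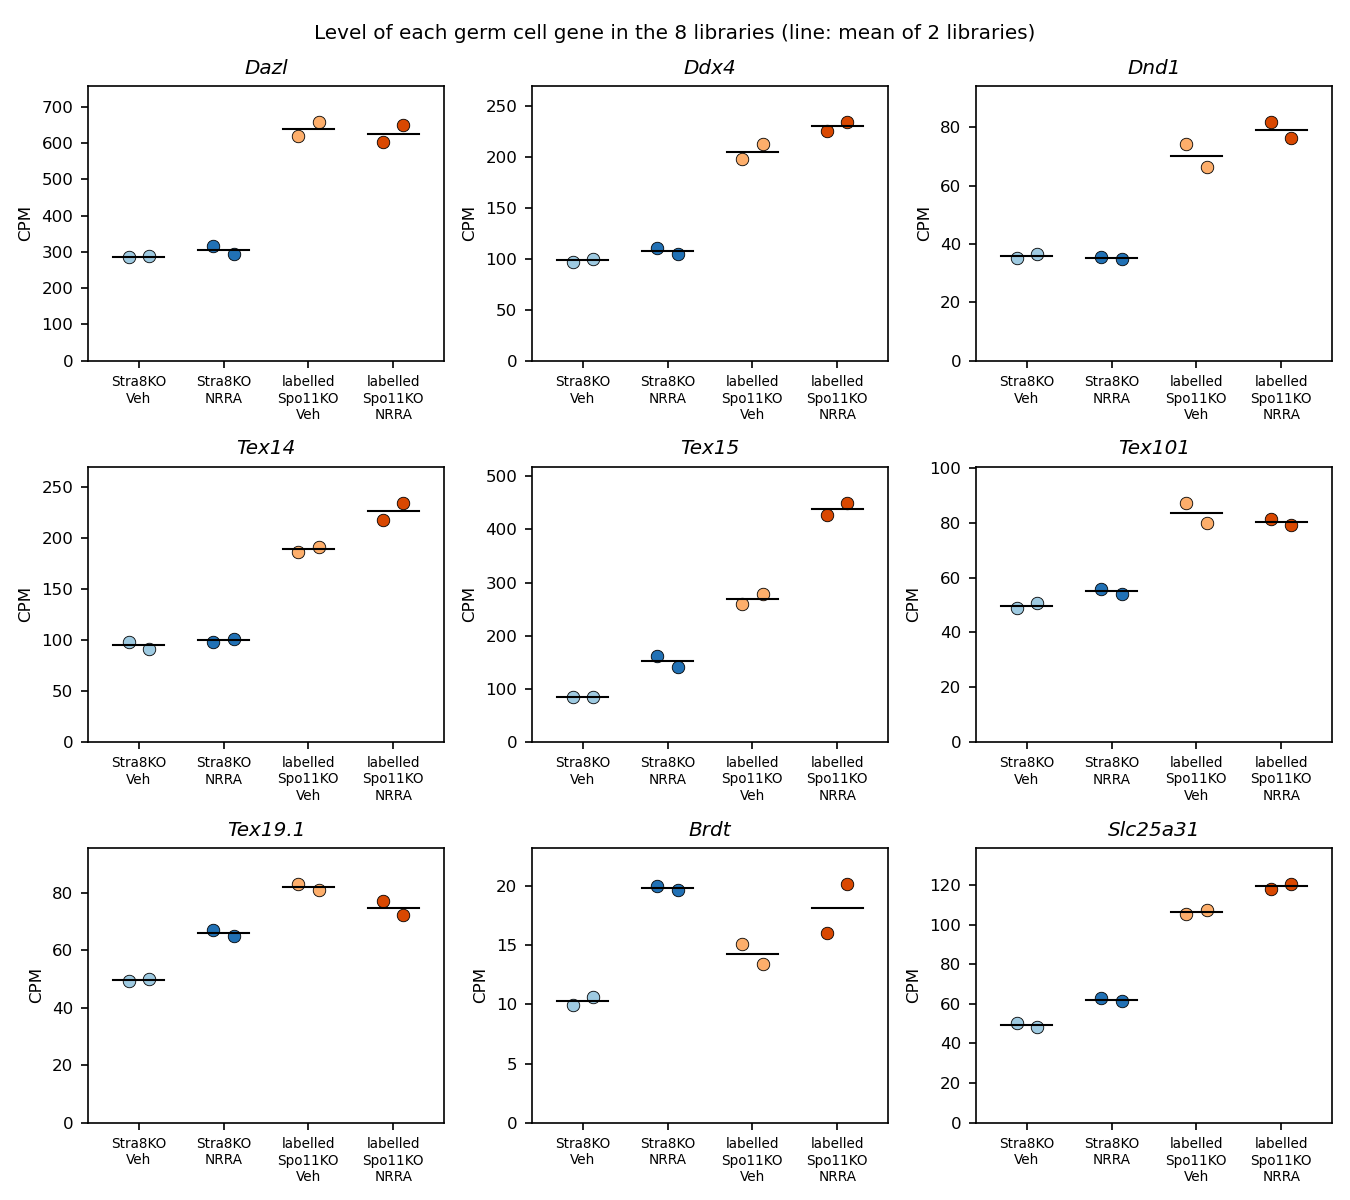
Level of each of the 9 genes in CPM after TMM scaling, 1 panel a gene, with each axis starting at 0. Points are the 8 libraries and lines the mean of the 2 libraries of a group. In 8 of the panels both Stra8KO NRRA libraries sit below both labelled Spo11KO NRRA libraries, and in the Brdt panel they overlap, at 19.7 to 19.98 CPM against 16.1 to 20.2 CPM.

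The comparison of genotypes in Veh asks how cultures without Stra8 differ from the other genotype before NRRA. All 9 genes were lower in Stra8KO, and none was higher. Tex15 differed most, with a log2 fold change of -1.68 (SE 0.0509), which is 3.20-fold lower. Dazl, Slc25a31, Ddx4, Tex14 and Dnd1 lay close together, between -1.15 and -0.97, which is 2.23-fold to 1.96-fold lower. Tex101 was 1.68-fold lower and Tex19.1 1.65-fold lower, and Brdt differed least, with a log2 fold change of -0.47 (SE 0.113), 1.39-fold lower.

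The edgeR quasi-likelihood adjusted p ranged from 3.99e-28 for Dazl to 0.000315 for Brdt. Over all tested genes 30.7% were called lower and 31.6% higher in this comparison. The median of the 9 genes was -0.998 on the log2 scale, and that of all tested genes was 0.00. The groups did not overlap for any of the 9, which was so for 79.7% of all tested genes. All 16 fibroblast markers were higher in Stra8KO Veh, with a median log2 fold change of 1.00, and summed to 27470 and 28086 CPM there against 14280 and 14401 CPM in labelled Spo11KO Veh. The 9 genes summed to 758 and 759 CPM against 1628 and 1687 CPM. The part of the feeder cells in the lower levels was not tested, and in bulk RNA fewer cells of a type and less RNA per cell cannot be told apart.

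The direction of 3 members depended on what the libraries were scaled to. When they were scaled to the 17 germ granule and piRNA genes (a list that holds none of the 9, and whose use as the reference moved the median of all tested genes to 0.93), Tex15 was still lower in Stra8KO Veh, at -0.75 (SE 0.0499), as were Dazl at -0.22, Slc25a31 at -0.18 and Ddx4 at -0.13. Dnd1 and Tex14 were at -0.04 and -0.07 on this scale, and neither was called. Tex101, Tex19.1 and Brdt were called higher on this scale, at 0.18, 0.21 and 0.46. Of the 20588 genes tested, 15595 were called higher and 507 lower on it. So relative to these 17 reference genes, Tex15 stood low and Brdt high in Stra8KO Veh.

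In NRRA the genotypes differed by a like amount for most members. Of the 9, 8 were lower in Stra8KO and none was higher, while over all tested genes 28.9% were called lower and 35.0% higher. Groups did not overlap for 8 of the 9, against 80.8% of all tested genes. Tex15 was 2.90-fold lower, with a log2 fold change of -1.54 (SE 0.0478). Tex14, Dnd1, Ddx4, Dazl and Slc25a31 lay between -1.18 and -0.94. Tex101 was at -0.55 (SE 0.0545, edgeR adjusted p = 1.82e-12) and Tex19.1 at -0.18 (SE 0.0528, edgeR adjusted p = 0.00246). Brdt was at 0.13 (SE 0.0957, edgeR adjusted p = 0.253) and was not called.

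The value of Brdt in this comparison rested on which labelled Spo11KO NRRA library was kept. Without replicate 1 of that group it was -0.03, and without replicate 2 it was 0.31 and called higher. With total counts in place of TMM it was -0.081. Tex19.1 was at -0.14 without labelled Spo11KO NRRA replicate 1 and was not called then (edgeR adjusted p = 0.0590). The median of the 9 was -1.04 against 0.07 for all tested genes. All 16 fibroblast markers were higher in Stra8KO NRRA, with a median log2 fold change of 0.97 and sums of 43000 and 43644 CPM against 21851 and 22513 CPM. Scaled to the germ granule and piRNA genes, Brdt, Tex19.1 and Tex101 were called higher in Stra8KO NRRA, at 1.05 (SE 0.0971), 0.74 (SE 0.0566) and 0.37 (SE 0.0584), Slc25a31 was at -0.02 and not called, and the other 5 stayed lower, from -0.62 for Tex15 to -0.12 for Dazl. On that scale the median of all tested genes was 0.98, and 16125 of the 20588 were called higher and 737 lower.

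**Figure D2:**
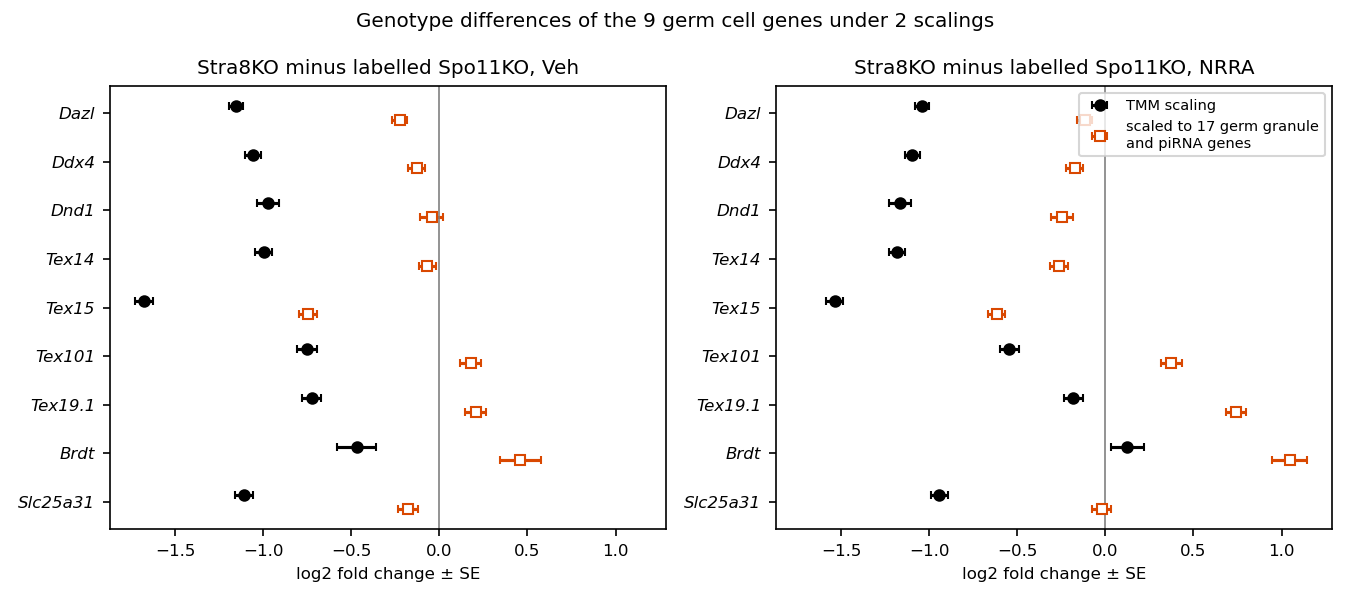
Log2 fold change of Stra8KO over labelled Spo11KO for the 9 genes, with standard errors as bars, in Veh on the left and in NRRA on the right. Filled circles are the TMM-scaled values and open squares the values scaled to 17 germ granule and piRNA genes. Under TMM the values in Veh run from -1.68 to -0.47, and under the other scaling Tex15 is at -0.75 and Brdt at 0.46.

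The comparison of NRRA with Veh within a genotype asks what nutrient restriction with RA changed in each culture. In Stra8KO, 6 of the 9 genes were higher in NRRA and none was lower. Brdt rose 1.93-fold (log2 fold change 0.95, SE 0.109, edgeR adjusted p = 2.61e-10) and Tex15 rose 1.80-fold (log2 fold change 0.85, SE 0.0523, edgeR adjusted p = 1.84e-15). Tex19.1 rose 1.33-fold and Slc25a31 1.26-fold. Tex101 and Ddx4 were called with small values, 0.15 (SE 0.0587, edgeR adjusted p = 0.0418) and 0.13 (SE 0.0468, edgeR adjusted p = 0.0236). Dazl, Tex14 and Dnd1 were at 0.09, 0.07 and -0.02 and did not pass the test.

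Over all tested genes 21.6% were called higher and 20.2% lower in this comparison. The median of the 9 was 0.15 against 0.01 for all tested genes, and groups did not overlap for 8 of the 9, against 69.4%. The calls of Ddx4 and Tex101 were lost with DESeq2 size factors (0.10 and 0.12), without the filter (0.11 and 0.13) and in DESeq2's own test, where the adjusted p was 0.202 and 0.277. The Ddx4 call was also lost without Stra8KO Veh replicate 1 (0.10) or Stra8KO NRRA replicate 1 (0.093), and the Tex101 call on leaving out any library but labelled Spo11KO Veh replicate 1, at 0.12 to 0.17. Dazl was called at 0.14 without Stra8KO NRRA replicate 2, and at 0.083 (SE 0.0345, edgeR adjusted p = 0.0452) in the fit to just the 4 Stra8KO libraries. Scaled to the germ granule and piRNA genes, Brdt and Tex15 were still higher in NRRA, at 0.64 (SE 0.110) and 0.54 (SE 0.0513), Tex19.1 and Slc25a31 were at 0.10 and 0.02 and not called, and Dazl, Ddx4, Dnd1, Tex14 and Tex101 were lower, from -0.33 to -0.16. The median of all tested genes was -0.29 on that scale, and 2198 of the 20588 were called higher and 9886 lower.

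In labelled Spo11KO, 6 of the 9 were higher in NRRA and 1 was lower. Tex15 rose 1.63-fold (log2 fold change 0.71, SE 0.0457, edgeR adjusted p = 5.34e-15). Brdt was at 0.35 (SE 0.0990, edgeR adjusted p = 0.00243) and Tex14 at 0.26 (SE 0.0424, edgeR adjusted p = 9.31e-07). Dnd1, Slc25a31 and Ddx4 were called at 0.17, 0.17 and 0.16. Tex19.1 was lower, at -0.13 (SE 0.0511, edgeR adjusted p = 0.0266). Tex101 and Dazl were at -0.06 and -0.03, and neither passed the test.

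Over all tested genes 24.5% were called higher and 25.5% lower here, and the median of the 9 was 0.17 against 0.01 for all tested genes. Groups did not overlap for 7 of the 9, against 71.9%. The lower level of Tex19.1 was not called with total counts (-0.04), without the filter (-0.09), in DESeq2's own test (-0.13, adjusted p = 0.135), or without labelled Spo11KO Veh replicate 1 or NRRA replicate 2 (-0.11 and -0.10). The Brdt call was lost without Veh replicate 2 (0.26) and without NRRA replicate 2 (0.15). Without NRRA replicate 2, Ddx4 and Slc25a31 were also not called, at 0.12 and 0.13, and the Dnd1 call was lost without Veh replicate 2 (0.077) or NRRA replicate 1 (0.11), and in DESeq2's own test (0.17, adjusted p = 0.0749). Scaled to the germ granule and piRNA genes, Tex15 alone was called higher, at 0.41 (SE 0.0453), Brdt was at 0.05 and not called, Tex14 and Dnd1 were at -0.04 and -0.13 and not called, and Tex19.1, Tex101, Dazl, Ddx4 and Slc25a31 were lower, from -0.43 to -0.13. On that scale 2343 of the 20588 genes tested were called higher and 9932 lower. Tex15 was the member called higher in NRRA in both genotypes under each of the scalings that was run. The fibroblast markers were mixed in this contrast, with 9 higher and 5 lower of 16 in Stra8KO and 10 higher and 6 lower in labelled Spo11KO, while their sum was higher in all 4 NRRA libraries than in the Veh libraries of the same genotype.

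**Figure D3:**
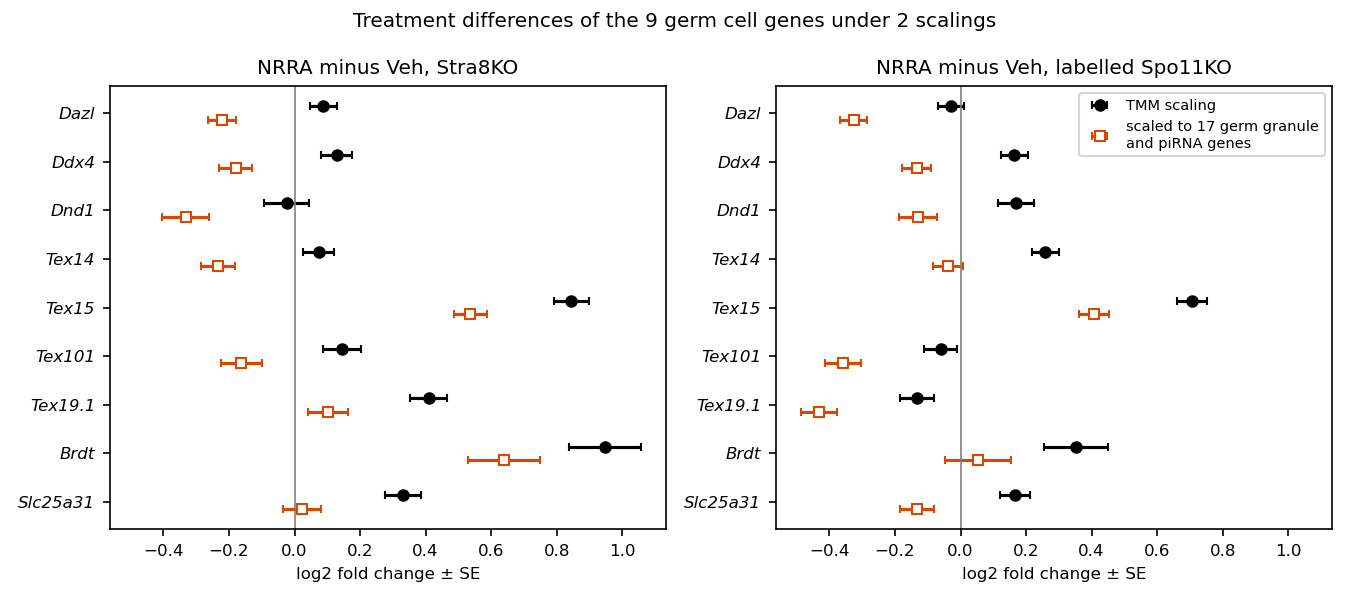
Log2 fold change of NRRA over Veh for the 9 genes with standard errors as bars, in Stra8KO on the left and labelled Spo11KO on the right. Filled circles are the TMM-scaled values and open squares the values scaled to 17 germ granule and piRNA genes. Tex15 lies above 0 in both panels on both scales, at 0.85 and 0.54 in Stra8KO and 0.71 and 0.41 in labelled Spo11KO, and Brdt reaches 0.95 in Stra8KO.

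Whether the NRRA effect itself differed between genotypes was tested as the interaction, the effect in Stra8KO minus that in labelled Spo11KO. It was called for 4 of the 9 genes, higher for Brdt, Tex19.1 and Tex101 and lower for Tex14, where over all tested genes 14.8% were called higher and 10.3% lower. Brdt differed by 0.60 (SE 0.148, edgeR adjusted p = 0.00164) and Tex19.1 by 0.54 (SE 0.0763, edgeR adjusted p = 1.34e-07). Tex101 differed by 0.21 (SE 0.0781, edgeR adjusted p = 0.0457) and Tex14 by -0.19 (SE 0.0640, edgeR adjusted p = 0.0265). Tex15 differed by 0.14 (SE 0.0694, edgeR adjusted p = 0.154), and the other members by -0.19 to 0.17 without a call.

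The interaction of Brdt lay between 0.44 and 0.78 and that of Tex19.1 between 0.50 and 0.59 in fits that each dropped 1 library, and both stayed called. The call of Tex101 was lost in 7 of these 8 fits, at 0.14 to 0.23, with all 3 other scalings, at 0.11 to 0.20, without the filter (0.14, edgeR adjusted p = 0.315) and in DESeq2's own test (0.17, adjusted p = 0.291). The call of Tex14 was lost in 4 of the 8 fits, where it was at -0.13 and -0.16 without replicate 1 of Stra8KO Veh or NRRA, and at -0.17 and -0.12 without labelled Spo11KO Veh replicate 1 or NRRA replicate 2. Dazl was called at 0.16 and 0.17 without labelled Spo11KO Veh replicate 1 or NRRA replicate 2, and at 0.17, along with Tex15 at 0.24, without Stra8KO NRRA replicate 2. Dnd1 was called at -0.28 without labelled Spo11KO Veh replicate 1, at -0.29 with total counts and at -0.26 without the filter.

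The counts of a member relative to Ddx4 in the same library do not depend on how libraries are scaled. For Tex15 this ratio was 0.855 ± 0.022 (SD, n = 2) in Veh and 1.40 ± 0.090 in NRRA for Stra8KO, and 1.31 ± 0.0048 and 1.91 ± 0.017 for labelled Spo11KO. It was higher in both NRRA libraries than in both Veh libraries of each genotype. For Brdt it was 0.105 ± 0.0020 and 0.185 ± 0.0049 in Stra8KO, and 0.0696 ± 0.0092 and 0.0787 ± 0.011 in labelled Spo11KO, where the media overlapped. For Tex19.1 it was 0.504 ± 0.0079 and 0.613 ± 0.0075 in Stra8KO, and 0.400 ± 0.027 and 0.326 ± 0.025 in labelled Spo11KO, so it was high under NRRA in the former and low in the latter. Tex101 was at 0.505 and 0.511 in the Stra8KO groups and 0.409 and 0.350 in the labelled Spo11KO groups. The ratios of Dazl (2.72 to 3.11), Dnd1 (0.328 to 0.364), Tex14 (0.920 to 0.982) and Slc25a31 (0.502 to 0.578) varied less between groups.

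**Figure D4:**
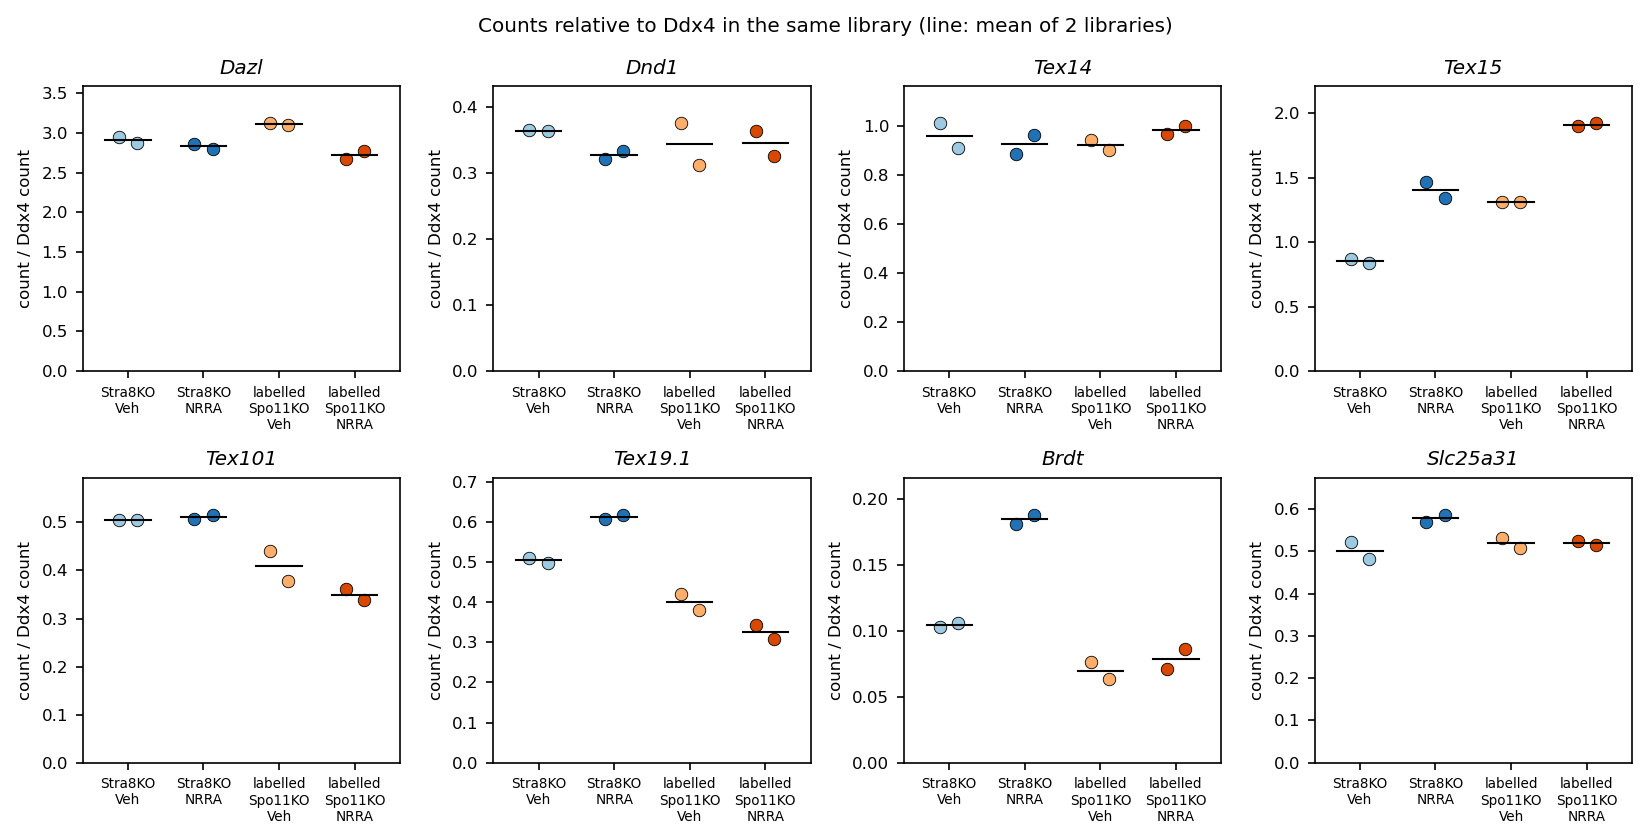
Count of each of the other 8 genes divided by the Ddx4 count of the same library, in the 8 libraries, with lines at the mean of 2 libraries and each axis starting at 0. The Tex15 ratio is 0.855 and 1.40 in the Stra8KO groups and 1.31 and 1.91 in the labelled Spo11KO groups, and the highest Brdt ratio is that of Stra8KO NRRA, at 0.185.

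Over the 8 libraries, which share 4 groups and are described with no test, the log2 CPM of a member followed the mean of the other 8 with a Pearson r of 0.95 to 1.00 for 7 members, of 0.88 for Tex19.1 and of 0.40 for Brdt. Among 10646 other genes (mean log2 CPM of 3 or more), those most like the mean of the 9 were Dnmt3a, a de novo DNA methyltransferase (r = 0.997), Rasgef1b (0.997), Hpse2 (0.996), Mga, the scaffold of the repressor complex named above (0.996), and Prr19 (0.996). Their log2 fold changes between genotypes in Veh were -0.64, -1.09, -1.11, -0.61 and -0.96. The r values and fold changes are under TMM, and the cause of the likeness was not tested.

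The spermatogonia markers also moved between these groups. In Stra8KO they summed to 737 and 727 CPM in Veh and 1178 and 1164 CPM in NRRA, and in labelled Spo11KO to 1615 and 1592 CPM in Veh and 1221 and 1239 CPM in NRRA, so under NRRA the sum was higher in Stra8KO and lower in labelled Spo11KO. Of the 11, 10 were lower in Stra8KO in Veh and none was higher (median log2 fold change -1.04), against 30.7% and 31.6% of all tested genes. In NRRA 6 were higher and 4 lower, against 35.0% and 28.9%. Relative to the germ granule and piRNA genes, 4 were higher and 6 lower in Veh, and 10 were higher and none lower in NRRA. On that scale 15595 of the 20588 genes tested were higher and 507 lower in Veh, and 16125 and 737 in NRRA. Under TMM, NRRA raised 9 and lowered 2 markers in Stra8KO (median 0.83), against 21.6% and 20.2% of all tested genes. It raised 4 and lowered 6 in labelled Spo11KO (median -1.04), against 24.5% and 25.5%. The interaction was called higher for 9 and lower for 1 (median 1.602), against 14.8% and 10.3%. The interaction counts were the same on the germ reference, while total counts gave 9 and 2. For NRRA against Veh, the germ reference gave 8 higher and 2 lower in Stra8KO, and 2 higher and 7 lower in labelled Spo11KO. Of all tested genes, 2198 were higher and 9886 lower there in Stra8KO, and 2343 and 9932 in labelled Spo11KO.

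Under NRRA, Zbtb16, a transcription factor of undifferentiated spermatogonia, was at 0.59 in Stra8KO and -1.04 in labelled Spo11KO, and Ret, the receptor that signals for GDNF, at -0.69 and -2.85. Dmrt1 was at 0.83 and 0.13, and Sall4 at 1.05 and 0.20. Kit, the receptor that marks differentiating spermatogonia and was singled out after its values were seen, was at 5.09 and 5.96, and it was the marker with a lower interaction, at -0.87. The part of such shifts in the members' values was not tested.

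The genes that work beside the members moved in the same comparisons as follows. Of 17 germ granule and piRNA genes, all were lower in Stra8KO in Veh and in NRRA, with medians of -0.99 and -0.95. Over all tested genes 30.7% and 28.9% were called lower. NRRA raised 11 of the 17 and lowered none in Stra8KO, against 21.6% and 20.2% of all tested genes. It raised 11 and lowered 3 in labelled Spo11KO, against 24.5% and 25.5%. Piwil2, a PIWI protein that binds piRNAs in spermatogonia, was at 0.67 and 0.63 in these contrasts, and Mov10l1, the helicase of piRNA precursors, at 0.39 and 0.58. Fkbp6, a co-chaperone of piRNA loading, was at 0.45 and 0.57, and the tudor protein gene Tdrd7 at 0.19 and 0.30. These medians and values are under TMM, and the list itself served as the reference of the other scaling. On that scale 2 of the 17 were higher and 3 lower in Stra8KO in Veh, and 4 were higher and 7 lower in NRRA. Of all tested genes, 15595 were higher and 507 lower there in Veh, and 16125 and 737 in NRRA. For NRRA against Veh, 4 of the 17 were higher and 5 lower on it in Stra8KO, and 6 and 7 in labelled Spo11KO. Of all tested genes, 2198 were higher and 9886 lower in Stra8KO, and 2343 and 9932 in labelled Spo11KO.

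Of 21 germ RNA-binding regulators, 20 were lower in Stra8KO in Veh and none was higher, and in NRRA 16 were lower and 3 higher. Of all tested genes, 30.7% were lower and 31.6% higher in Veh, and 28.9% and 35.0% in NRRA. Relative to the germ granule and piRNA genes, 12 regulators were higher and 3 lower in Veh, and 11 higher and 6 lower in NRRA. On that scale 15595 of the 20588 genes tested were higher and 507 lower in Veh, and 16125 and 737 in NRRA. Under TMM, NRRA raised 5 and lowered 3 of the regulators in Stra8KO, against 21.6% and 20.2% of all tested genes. It raised 8 and lowered 6 in labelled Spo11KO, against 24.5% and 25.5%. On the germ reference 3 were raised and 14 lowered in Stra8KO, and 3 raised and 12 lowered in labelled Spo11KO, where of the 20588 genes tested 2198 were raised and 9886 lowered, and 2343 raised and 9932 lowered. Among the most abundant, Celf1, Pum2 and Dazap1 are RNA-binding proteins that somatic cells also use, and they were at -0.23, -0.13 and -0.38 between genotypes in Veh and turned to 0.70, 0.80 and 0.55 on the germ reference. The partner of DND1, Nanos2, and the related Nanos3 were singled out after their values were seen. Nanos2 was at 1.71 and 1.97 CPM in Stra8KO Veh, then at 1.64 and 2.08 in Stra8KO NRRA, against 7.79 to 8.79 in labelled Spo11KO Veh and 0.232 to 0.648 in labelled Spo11KO NRRA. It thus fell by 4.18 on the log2 scale (SE 0.260) under NRRA in labelled Spo11KO and was at 0.01 (SE 0.272) in Stra8KO, an interaction of 4.19 (SE 0.401, edgeR adjusted p = 4.68e-12). Nanos3 fell by 2.44 in labelled Spo11KO and rose by 0.66 in Stra8KO, an interaction of 3.10 (SE 0.197). Both kept the direction of their falls in labelled Spo11KO on the germ reference, at -4.47 and -2.74. Nanos1, of the same family and list, went the other way in labelled Spo11KO, at 21.9 to 25.1 CPM in Veh and 39.1 to 40.7 CPM in NRRA. In Stra8KO its mean was 18.7 CPM in Veh and 19.4 CPM in NRRA. Dnd1 itself had an interaction of -0.19 that was not called.

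All 5 bridge partners of TEX14 were lower in Stra8KO in both media, with medians of -0.90 and -1.10. Over all tested genes 30.7% were called lower in Veh and 28.9% in NRRA. Relative to the germ granule and piRNA genes, 1 was lower in Veh, and 3 were lower and 1 higher in NRRA. On that scale 15595 of all tested genes were higher and 507 lower in Veh, and 16125 and 737 in NRRA. Under TMM, the germ cell bridge gene Rbm44 was at -0.80 and -1.10. The cytokinesis genes Cep55, Kif23, Racgap1 and Plk1 were at -0.89, -1.11, -0.90 and -1.07 in Veh. Under NRRA, Rbm44 rose in both genotypes, by 0.19 in Stra8KO and 0.50 in labelled Spo11KO, and Plk1, a mitotic kinase, fell by 0.31 and 0.59. Racgap1 rose by 0.21 in Stra8KO, Cep55 rose by 0.33 in labelled Spo11KO, and Kif23 was called in neither, though with total counts it was called at 0.16 in labelled Spo11KO. On the germ reference only Plk1 of these kept its call in both genotypes, at -0.62 and -0.89, and Rbm44 was at -0.11 in Stra8KO and not called. Under NRRA, 3 of the 5 were lower and none higher on it in Stra8KO, and 3 lower and 1 higher in labelled Spo11KO. Of all tested genes, 9886 were lower and 2198 higher in Stra8KO, and 9932 and 2343 in labelled Spo11KO.

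The 6 counterparts of members in other tissues that are described here did not follow the 9 genes in all comparisons. In Veh, Slc25a4 and Slc25a5, the ADP/ATP carriers of other tissues, were higher in Stra8KO, at 0.92 (SE 0.0390) and 0.20 (SE 0.0488), while Slc25a31 was lower, and the call of Slc25a5 was lost with total counts (0.084). Per kilobase of exon, Slc25a4 was at 123 CPM per kb in Stra8KO Veh and 65.2 in labelled Spo11KO Veh, against 23.2 and 49.99 for Slc25a31. NRRA lowered Slc25a5, by 0.48 in Stra8KO and 1.03 in labelled Spo11KO, where Slc25a31 was higher. Brd2, a BET family gene of other tissues, fell by 0.29 and 0.77 under NRRA in Stra8KO and labelled Spo11KO, while Brdt rose by 0.95 and 0.35, and on the germ reference Brd2 was at -0.60 and -1.06 and Brdt at 0.64 and 0.05. Brd3 was at 0.07 and -0.14, of which the value in labelled Spo11KO was called, and that call was lost with total counts (-0.045, edgeR adjusted p = 0.335). Between genotypes in Veh, Brd2, Brd3 and Ddx3x were lower in Stra8KO, by values from -0.17 to -0.53, and all 3 were higher on the germ reference, by 0.40 to 0.76. Ddx3x, an RNA helicase related to Ddx4, fell by 0.19 and 0.37 under NRRA. Tex19.2, the paralog of Tex19.1 on the same chromosome (chr11:121116215-121118677, minus strand), was at 0.66 (SE 0.126, edgeR adjusted p = 2.08e-05) under NRRA in Stra8KO and at 0.11 (SE 0.115, edgeR adjusted p = 0.460) in labelled Spo11KO, with an interaction of 0.56 (SE 0.171, edgeR adjusted p = 0.0120). How reads that match both genes were counted is not given in the sources used here, so their levels are uncertain, as are those of the ADP/ATP carriers.

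Genes of later male germ cells were low. Of 11 such genes in the table, 7 passed the filter, and their summed level was 23.4 to 24.1 CPM in Stra8KO Veh, 29.3 to 30.6 in Stra8KO NRRA, 29.1 to 32.8 in labelled Spo11KO Veh and 47.0 to 51.4 in labelled Spo11KO NRRA. NRRA raised 3 and lowered none in each genotype. Of all tested genes, 21.6% were higher and 20.2% lower in Stra8KO, and 24.5% and 25.5% in labelled Spo11KO. Ccna1, a cyclin of spermatocytes, rose by 2.31 in labelled Spo11KO and was at 0.07 in Stra8KO, and Hspa2, a chaperone of spermatocytes, rose by 0.99 in labelled Spo11KO and was at 0.21 in Stra8KO. Ldhc, the testis lactate dehydrogenase, rose by 2.29 in Stra8KO and was at 0.39 in labelled Spo11KO. Ccna1 and Ldhc rose from low levels. Ccna1 was at 0.505 to 0.566 CPM in labelled Spo11KO Veh and 2.51 to 2.83 CPM in NRRA. Ldhc was at 0.403 to 0.581 CPM in Stra8KO Veh and 2.37 to 2.54 CPM in NRRA. Piwil1 rose by 0.35 in labelled Spo11KO and was at 0.17 in Stra8KO, and on the germ reference it was at 0.05 and -0.13 and not called in either. Between genotypes in Veh, 1 of the 7 was higher in Stra8KO and 3 were lower, against 31.6% and 30.7% of all tested genes. The 1 was Hspa2, at 0.27, and its call was lost with total counts (0.15).

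**Figure D5:**
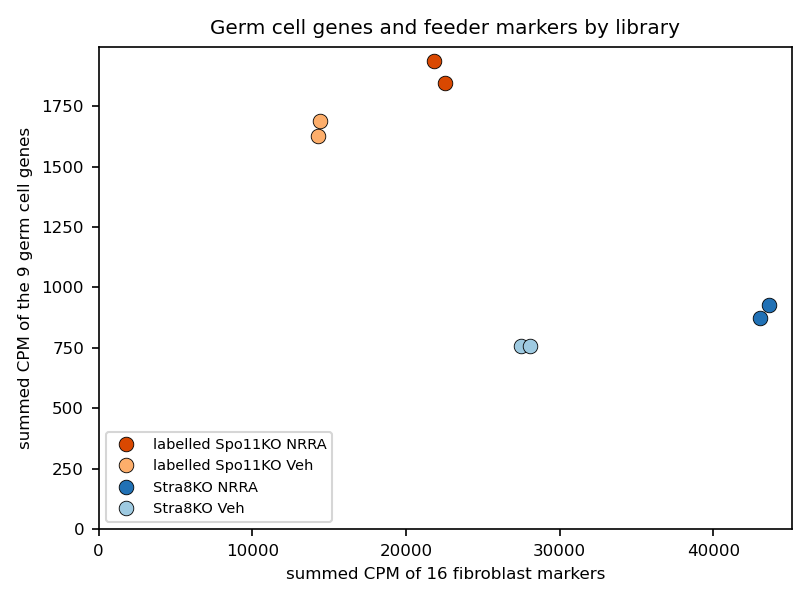
Summed CPM of the 9 germ cell genes against the summed CPM of the 16 fibroblast markers in the 8 libraries, with axes that start at 0 and 1 colour a group. The Stra8KO libraries lie low and to the right, at 758 to 927 CPM for the 9 genes, and the labelled Spo11KO libraries high and to the left, at 1628 to 1936 CPM.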

How the data were processed

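Poly(A) RNA-seq of 8 libraries was analysed, 2 in each combination of genotype and medium. The authors deposited raw read counts per Ensembl gene, not normalized and not pooled. The submitters' processing notes name bcl2fastq, STAR 2.6.1c, featureCounts 1.6.4 and mm10. Strand and multi-mapping settings are not given in the sources used here, so genes with paralogs or overlaps are uncertain. Groups came from the sample titles, and the treatment entries of the labels give the same groups, while their treatment protocol field reads NRRA for all 8. Testing used edgeR 4.0.16 under R 4.3.3, with filterByExpr (20588 genes with 99.88% of counts), TMM scaling and the two-sided quasi-likelihood F test in 1 model of all 8 libraries with 4 residual degrees of freedom. Calls were made at an adjusted p under 0.05 (Benjamini-Hochberg over all tested genes). The code was tested on simulated data. Replicates of a group differed by more than sampling noise (median chi-square per gene 0.741 to 0.974, against 0.455), with a common biological coefficient of variation of 3.39%. Coordinates and exon lengths came from GENCODE release M21 (GRCm38). Alternatives were 3 other scalings, no filter, DESeq2 1.42.0 (the test the study names), a fit to just the 4 libraries compared, a replicate block and each library left out. The members and lists were chosen with earlier results of these data known. All members, all bridge partners, all counterparts in other tissues and up to 4 genes of every other list, by mean CPM, are named, with the 5 genes most like the members, except for 2 list genes that are not reported here and the Sertoli, Leydig and macrophage markers, which are given as sums.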

Additional observations from a re-analysis of the deposited data

Results flagged for a closer look

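For 4 of the 9 genes the response to NRRA differed between Stra8KO and labelled Spo11KO in the test of the difference itself (edgeR quasi-likelihood test, adjusted over all tested genes), which called 14.8% of all tested genes higher and 10.3% lower. Brdt responded more in Stra8KO by 0.60 on the log2 scale, and Tex19.1 by 0.54, with a rise in Stra8KO and a lower level in labelled Spo11KO. Tex101 differed by 0.21, a call that was lost with all 3 other scalings, without the filter, in DESeq2's test and in 7 of the 8 fits that each left out 1 library. Tex14 differed by -0.19, a call lost in 4 of those 8 fits (edgeR adjusted p = 0.0695 to 0.246).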

How the results depend on the processing

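Scaling to the germ granule and piRNA genes changed the counts of members most. In Stra8KO the members higher and lower in NRRA went from 6 and 0 to 2 and 5, and in labelled Spo11KO from 6 and 1 to 1 and 5. Between genotypes the higher and lower members went from 0 and 9 to 3 and 4 in Veh, and from 0 and 8 to 3 and 5 in NRRA. On this scale the NRRA effect turned to -0.22 for Dazl, -0.18 for Ddx4, -0.23 for Tex14 and -0.16 for Tex101 in Stra8KO, and to -0.13 for Ddx4, -0.13 for Dnd1, -0.039 for Tex14 and -0.13 for Slc25a31 in labelled Spo11KO. The genotype difference turned to 0.18 for Tex101, 0.21 for Tex19.1 and 0.46 for Brdt in Veh, and to 0.37 for Tex101 and 0.74 for Tex19.1 in NRRA. Total counts moved the median of all tested genes to -0.11 (genotypes in Veh) and -0.14 (in NRRA) and turned Dazl to 0.063 and Tex101 to 0.031 (NRRA in labelled Spo11KO) and Brdt to -0.081 (genotypes in NRRA). Without the filter, Dazl turned to 0.020 in the NRRA contrast of labelled Spo11KO. The 1 member lower there became 0 with total counts, without the filter and in DESeq2's test, and the 1 member with a lower interaction became 2 with total counts and without the filter. With each library left out in turn, members called higher numbered 4 to 6 and 3 to 6 for NRRA in Stra8KO and labelled Spo11KO (3 without labelled Spo11KO NRRA replicate 2), 0 to 0 and 0 to 1 for the genotypes in Veh and NRRA, and 2 to 4 for the interaction. Members called lower numbered 0 to 0, 0 to 1, 9 to 9, 7 to 8 and 0 to 1 in these 5 comparisons. The values that turned ranged, over these fits, from -0.0999 to 0.0146 for Dazl (turned without labelled Spo11KO Veh replicate 2 or NRRA replicate 1) and from -0.134 to 0.00446 for Tex101 (without labelled Spo11KO Veh replicate 1) in the NRRA contrast of labelled Spo11KO, from -0.0290 to 0.310 for Brdt between genotypes in NRRA (without labelled Spo11KO NRRA replicate 1), and from -0.0865 to 0.0120 for the interaction of Ddx4 (without labelled Spo11KO Veh replicate 1). The cause of these changes was not tested. Same-numbered replicates did not deviate together (correlations of -0.03 to 0.06). This cannot show whether they shared a culture, because each group gives only 1 deviation. With the replicate block the members higher and lower stayed at 6 and 0, 6 and 1, 0 and 9, 0 and 8, and 3 and 1, and no member's call changed. DESeq2 called 2950 genes higher for NRRA in Stra8KO and 1864 for the interaction, against 4456 and 3051 in edgeR, and total counts gave 3473 genes with a lower interaction against 2121. The germ reference gave 2198 higher and 9886 lower genes for NRRA in Stra8KO, 2343 and 9932 in labelled Spo11KO, and 15595 and 507, and 16125 and 737, between genotypes in Veh and NRRA. With 2 libraries a group, small differences can go uncalled, and Brdt, with 211 to 592 counts a library, is the member measured least precisely.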
